A study of Mus musculus with 22 samples.

Results

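The enzymes that make serine, turn it into D-serine or glycine, break glycine down and hand the released carbon to folate were followed in ribosome-bound mRNA of 6 cell types of the mouse brain. The group holds 10 genes, found by symbol among the 55385 gene identifiers in the files: Phgdh, Psat1, Psph, Srr, Shmt1, Shmt2, Gldc, Gcsh, Amt and Aldh1l1. All 10 passed the filter on low counts. Every mouse carried the RiboTag allele (genotype Rpl22 Fl/+), which adds an epitope tag to a ribosomal protein once Cre has acted, so that ribosomes of the Cre-expressing cells can be pulled from whole tissue. Mice were 6 weeks old. Dentate gyrus granule cells (hippocampus) and layer V cortical neurons (cortex) were both tagged with Rbp4-Cre. Cerebellar granule cells were tagged with Gabra6-Cre, and inhibitory interneurons of the hippocampus with Dlx6a-Cre, each of these interneuron libraries pooling tissue of 2 mice. Astrocytes and microglia of the cortex were tagged with the inducible lines Aldh1l1-cre/ERT2 and Tmem119-cre/ERT2. Tamoxifen was given for inducible lines only, so that tamoxifen and glial identity cannot be told apart. Each cell type had 3 biological replicates, and the 18 libraries used held between 38270477 and 71440915 estimated counts each.

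Serine is made from a glycolytic intermediate in 3 steps, catalysed by PHGDH, PSAT1 and PSPH. Serine racemase (SRR) converts L-serine to D-serine, a co-agonist of the NMDA receptor. The serine hydroxymethyltransferases SHMT1 (cytosol) and SHMT2 (mitochondria) split serine into glycine and a carbon unit carried by tetrahydrofolate. The mitochondrial glycine cleavage system, built from GLDC, GCSH, AMT and a shared dihydrolipoamide dehydrogenase, breaks glycine down and passes its carbon to folate, and ALDH1L1 oxidises formyl-tetrahydrofolate in the cytosol. PHGDH and ALDH1L1 are widely used as astrocyte proteins, while neurons are the better known site of SRR.

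The libraries carried the markers of their labels. All 8 astrocyte markers, all 6 microglial markers and all markers of dentate granule cells (3), cerebellar granule cells (4) and interneurons (4) were higher in every library of their own cell type than in any other library. Of the 3 layer V markers this held for Fezf2 only. Tmem119 and Gabra6, in the microglial and cerebellar lists, are also the genes of the Cre lines used, so they do not check those labels independently. RNA of other cells was also present. The 8 astrocyte markers summed to 13070 to 14210 TPM in astrocytes (TPM is a level scaled to the library total and corrected for transcript length), to 331.8 to 401.9 TPM in microglia and to 65.1 to 264.5 TPM in the neuron types. The 6 oligodendrocyte markers summed to 2855 to 3059 TPM in interneurons, 993 to 1212 TPM in astrocytes and 551 to 644 TPM in microglia, against 122 to 414 TPM elsewhere, and the 4 endothelial markers to 258 to 382 TPM in microglia against 39.7 to 55.1 TPM in astrocytes. Neuronal RNA was present in the glial libraries too. The neuronal markers Rbfox3, Snap25 and Syt1 summed to 638 to 879 TPM in astrocytes and 314 to 352 TPM in microglia. In the neuron types they summed to 2973 to 12370 TPM. Fezf2 was at 20.5 TPM in astrocytes on average, against 85.5 TPM in layer V neurons. None of the markers of these lists was at 0 in every library of a cell type other than Fezf2 in cerebellar granule cells. The part of such RNA in the levels below was not tested. A change in the number of tagged cells and in RNA per cell cannot be told apart in these samples.

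Astrocytes held by far the most mRNA of these enzymes. The 10 genes summed to 1892 ± 30.2 TPM (SD, n = 3) in astrocytes, against 282.8 ± 2.43 TPM in microglia, 234.7 ± 12.5 TPM in dentate gyrus granule cells, 212.8 ± 7.98 TPM in interneurons, 166.3 ± 4.47 TPM in layer V neurons and 109.5 ± 5.56 TPM in cerebellar granule cells. Astrocytes ranked highest for 8 of the 10 genes, without overlap between their libraries and those of any other cell type. The share of all genes with this pattern was not counted, so the 8 are given as a description. The exceptions were Srr and Shmt1, both highest in dentate gyrus granule cells. Aldh1l1 regulatory sequence drives the astrocyte Cre, so the astrocyte level of that gene checks the tagging and is given as a description. The astrocyte sum includes its 348.7 TPM, and the counts and medians for astrocytes here and below include it as well.

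**Figure D1:**
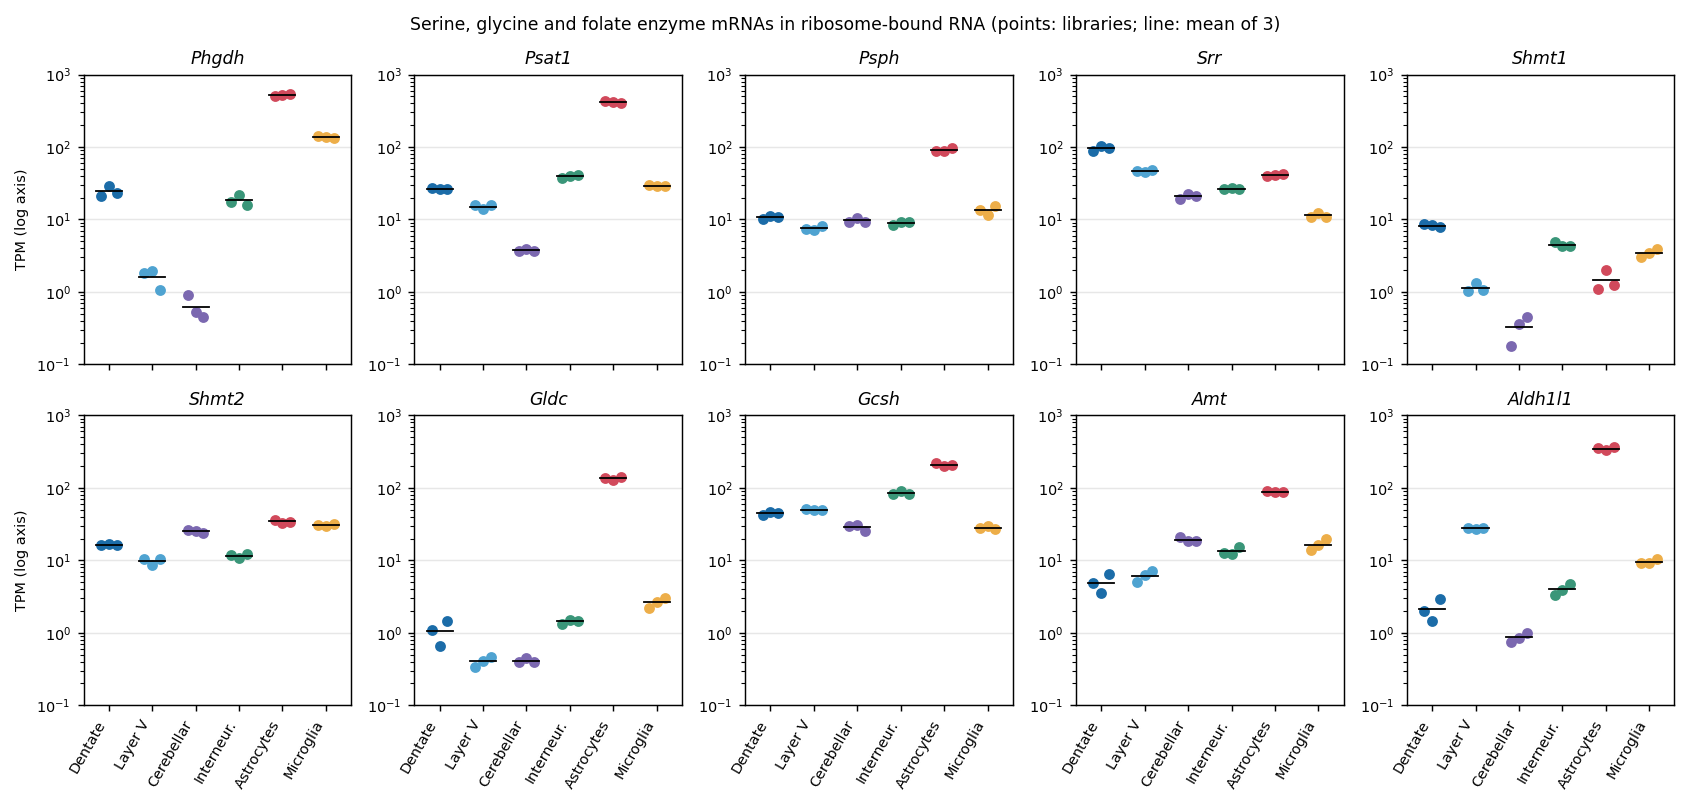
TPM of each of the 10 enzyme genes in the 18 libraries on a log axis, with a panel per gene, a point per library and a line at the mean of the 3 libraries of a cell type. Astrocytes (red) lie above every other library in all panels but Srr and Shmt1, where dentate gyrus granule cells lie highest.

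Against the 4 neuron types, 9 of the 10 genes were higher in astrocytes and none was lower at an adjusted p of 0.05 or less (edgeR's quasi-likelihood test over 20524 genes, Benjamini-Hochberg adjustment). The one gene without a call was Shmt1. With limma on log2(TPM + 1) 8 genes were higher and 1 lower, since Srr lost its call and Shmt1 was called lower. Among all genes tested, 43.0% were called higher in astrocytes and 34.1% lower, so a call alone is common here, and the sizes carry more. Of the 10 genes, 7 were higher by at least 4-fold, a size chosen after the data were seen, against 17.1% of all genes. Aldh1l1, at 131-fold, is among these 7 and among the 9 called, although the Cre line was chosen for its expression in astrocytes. The median log2 fold change was 3.497 over the 10 genes and 0.14 over all genes. These fold changes set astrocytes against the mean of the 4 neuron types on the log2 scale, so they exceed ratios of plain means where 1 neuron type is very low.

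In microglia, 8 of the 10 genes were higher than the log2 mean of the 4 neuron types and 2, Srr and Gcsh, were lower. Of all genes, 45.1% and 37.2% were. On mean TPM, only Phgdh, Psph, Shmt2 and Gldc were higher in microglia than in every neuron type. Psat1 was at 29.2 TPM against 39.4 TPM in interneurons, and Shmt1 at 3.44 TPM against 8.24 TPM in dentate gyrus granule cells. Amt was at 16.5 TPM against 19.1 TPM in cerebellar granule cells, and Aldh1l1 at 9.59 TPM against 27.6 TPM in layer V neurons. Only Phgdh and Gldc were higher by at least 4-fold (19.7% of all genes), Gldc by 4.27-fold in this fit and at a log2 difference of 1.03 with limma on log2(TPM + 1). The median log2 fold change was 1.01 against 0.15 over all genes. Both comparisons use the same neuronal libraries. Directly against microglia, 9 of the 10 genes were higher in astrocytes (39.8% of all genes) and Shmt1 was lower (36.3% of all genes were). Here 7 genes, again with Aldh1l1 among them, were higher by at least 4-fold, against 10.3% of all genes. The median log2 fold change was 2.83 against 0.04. Among the 4 neuron types, all 10 genes differed, as did 88.3% of all genes, and the median distance between the highest and the lowest neuron type was 2.21 on the log2 scale against 1.62 over all genes.

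**Figure D2:**
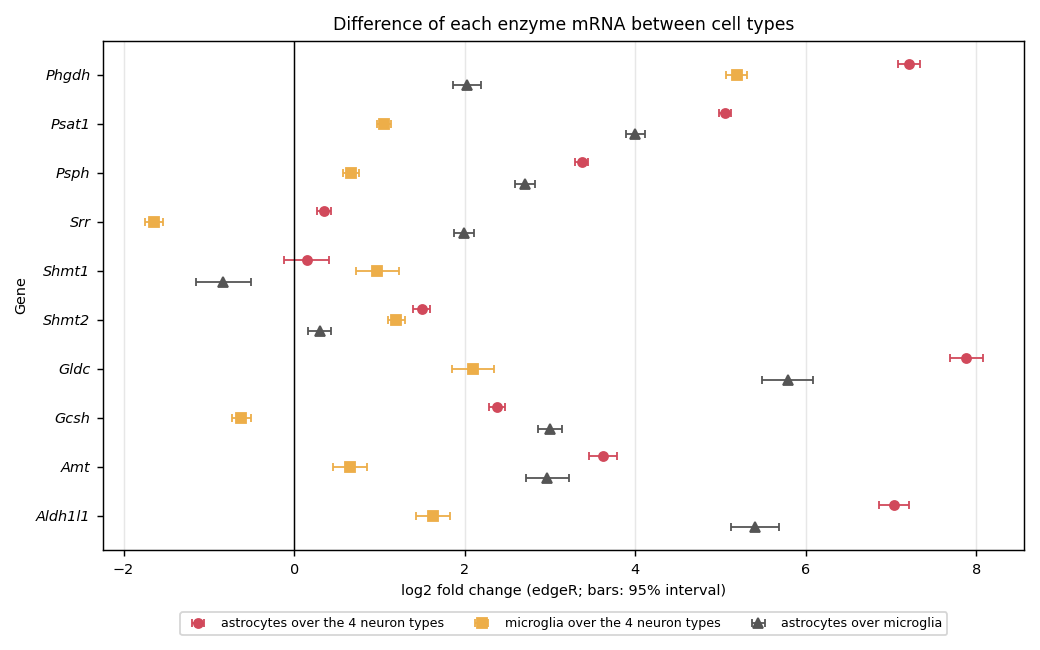
Log2 fold change of each gene in astrocytes over neurons, microglia over neurons and astrocytes over microglia. Bars are approximate 95% intervals derived from the fold change and F statistic of the edgeR test. In astrocytes over neurons (circles) only the interval of Shmt1 covers 0, while in microglia over neurons (squares) Srr and Gcsh lie below 0.

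Phgdh (ENSMUSG00000053398.11, GRCm38 chr3:98313170-98339990, minus strand) encodes the dehydrogenase of the opening step of serine synthesis and had the widest spread of levels among the 3 synthesis genes. Its level was 505, 524 and 546 TPM in the 3 astrocyte libraries and 142.5, 136 and 134 TPM in microglia. It was 21.4, 28.7 and 23.0 TPM in dentate gyrus granule cells and 17.6, 21.9 and 15.9 TPM in interneurons. Layer V neurons had 1.80, 1.93 and 1.07 TPM and cerebellar granule cells 0.902, 0.525 and 0.456 TPM, or 65 to 102 and 21 to 35 estimated counts. The order was thus astrocytes, microglia, then dentate gyrus granule cells and interneurons, whose libraries overlapped, then layer V neurons and cerebellar granule cells, with no other overlap between neighbours. Phgdh was higher in astrocytes than in neurons by 7.21 (standard error 0.06) on the log2 scale, or 148-fold, with an edgeR adjusted p of 1.38e-22. In microglia the difference from neurons was 5.19 (standard error 0.06), or 36.5-fold, with an edgeR adjusted p of 3.12e-21. Microglia still lay 4.06-fold below astrocytes.

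The level of Phgdh in microglia was 26.2% of the astrocyte mean. The 8 astrocyte markers stood at 1.52% to 9.57% of their own astrocyte means in the same microglial libraries, so Phgdh lay above each of them. In layer V neurons Phgdh was at 0.305% of the astrocyte mean, near the lowest marker (0.291%), and in cerebellar granule cells it was at 0.12%, below the lowest marker (0.186%). In dentate gyrus granule cells it was at 4.64% of the astrocyte mean, above all 8 markers (0.492% to 2.84%).

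Psat1 (ENSMUSG00000024640.9, chr19:15904678-15947337, minus strand), the aminotransferase of the middle step, was at 433, 422 and 398 TPM in astrocytes. Interneurons came next, at 37.2, 40.0 and 40.9 TPM. Microglia had 29.7, 29.1 and 28.8 TPM, dentate gyrus granule cells 27.0, 26.7 and 26.1 TPM, layer V neurons 15.7, 13.8 and 15.7 TPM, and cerebellar granule cells 3.65, 3.92 and 3.64 TPM. No neighbours in this order overlapped, though microglia and dentate gyrus granule cells were only 1.10-fold apart. Astrocytes exceeded neurons by 5.05 (standard error 0.04) on the log2 scale, 33.2-fold, with an edgeR adjusted p of 2.1e-23. For microglia the difference was 1.05 (standard error 0.04), 2.08-fold.

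Psph (ENSMUSG00000029446.14, chr5:129765558-129787449, minus strand), the phosphatase of the last step, had 88.7, 88.3 and 95.9 TPM in astrocytes and a narrow range elsewhere, between 7.20 and 15.4 TPM. On the TPM scale dentate gyrus granule cells, cerebellar granule cells and interneurons could not be ordered, since neighbours overlapped. In CPM they did not overlap, at 7.23 to 7.62 in cerebellar granule cells, 6.50 to 6.92 in dentate gyrus granule cells and 5.78 to 6.165 in interneurons. The 820 bp transcript Psph-204 held 21.9% to 39.9% of Psph TPM in dentate gyrus granule cells on 38 to 55 estimated counts. Psph was 10.3-fold higher in astrocytes than in neurons (log2 3.37, standard error 0.04) and 1.59-fold higher in microglia (log2 0.67, standard error 0.05). The fitted distance between its highest and lowest neuron type was 0.32 on the log2 scale, the smallest among the 10 genes.

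The 3 synthesis genes were not kept in a fixed proportion. On the TPM scale, Phgdh over Psat1 was 1.26 ± 0.103 (SD, n = 3) in astrocytes and 0.916 ± 0.145 in dentate gyrus granule cells, but 4.71 ± 0.072 in microglia, 0.471 ± 0.080 in interneurons, 0.169 ± 0.068 in cerebellar granule cells and 0.107 ± 0.036 in layer V neurons. The microglial libraries, from 4.66 to 4.79, lay above those of every other cell type. In layer V neurons and cerebellar granule cells, Phgdh mRNA was thus low beside that of the later steps. In layer V neurons Psat1 and Psph stood at 3.61% and 8.29% of their astrocyte means, below S100b (12.1%) alone among the astrocyte markers. In cerebellar granule cells Psph, at 10.7%, lay above every marker, while Psat1, at 0.895%, lay within their range (0.186% to 1.95%). The part of astrocyte RNA in these levels was not tested.

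The sequences just upstream of 2 genes with the largest astrocyte to neuron folds, Phgdh and Gldc, are shown with the 2 start regions of Aldh1l1 described below. They are the 250 bases before the annotated start, 5′ to 3′ on the strand of the gene, with matches to any of the searched motifs in capitals. The first 3 are from RefSeq (GRCm38), and the last was read from the GRCm38 genome before the start of transcript Aldh1l1-202.
Phgdh, chr3:98339970-98340219, minus strand: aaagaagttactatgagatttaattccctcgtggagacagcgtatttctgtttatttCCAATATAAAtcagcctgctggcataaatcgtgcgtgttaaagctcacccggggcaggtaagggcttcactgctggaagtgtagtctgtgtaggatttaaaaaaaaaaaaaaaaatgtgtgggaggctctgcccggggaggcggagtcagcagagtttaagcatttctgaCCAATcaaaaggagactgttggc
Gldc, chr19:30175442-30175691, minus strand: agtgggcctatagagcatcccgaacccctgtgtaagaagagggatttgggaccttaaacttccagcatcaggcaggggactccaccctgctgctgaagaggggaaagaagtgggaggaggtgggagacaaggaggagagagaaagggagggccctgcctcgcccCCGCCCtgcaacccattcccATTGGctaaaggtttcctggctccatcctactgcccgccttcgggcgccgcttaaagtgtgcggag
Aldh1l1, chr6:90550543-90550792, plus strand: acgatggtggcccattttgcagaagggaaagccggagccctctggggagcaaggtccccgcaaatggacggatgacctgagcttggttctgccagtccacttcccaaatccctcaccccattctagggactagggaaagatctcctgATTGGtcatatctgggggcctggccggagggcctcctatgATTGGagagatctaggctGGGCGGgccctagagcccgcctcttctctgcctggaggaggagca
Aldh1l1-202, chr6:90486177-90486426, plus strand: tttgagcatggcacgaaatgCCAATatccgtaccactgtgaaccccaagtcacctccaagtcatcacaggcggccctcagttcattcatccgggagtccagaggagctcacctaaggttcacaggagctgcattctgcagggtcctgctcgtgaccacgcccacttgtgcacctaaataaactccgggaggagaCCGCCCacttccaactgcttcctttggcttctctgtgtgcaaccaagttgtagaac

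Each motif was searched on both strands. RefSeq windows of 250 bases were found for all 10 genes, with 2 starts for Psat1. The letters CCAAT, bound by the factor NF-Y, were present in 8 of the 10 genes (not in Srr or Shmt2) and in 33.8% of all 32851 windows. The Sp1 motif, with the letters GGGCGG, was present in 8 of 10 (not in Phgdh or Shmt2) and in 32.7% of windows. The letters of a TATA box, searched as TATAAA, were found in Phgdh alone, overlapping an NF-Y match, and in 12.4% of windows. In Phgdh they lie in the part of the window farther from the start. An E-box with the letters CACGTG matched none of the 10 genes, against 6.02% of windows. The composite element of ATF4 and C/EBP, searched as TGATGNAA, matched none of them either, against 3.45% of windows. Psat1 has a further start in this count, so its chance of holding a motif is larger. The matches are a description of letters in these windows.

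Srr (ENSMUSG00000001323.17, chr11:74906359-74925948, minus strand), the racemase that makes D-serine, was ordered unlike the synthesis genes. It was highest in dentate gyrus granule cells, at 88.3, 102.9 and 95.7 TPM. Layer V neurons had 47.3, 44.9 and 48.4 TPM and astrocytes 40.1, 41.6 and 42.4 TPM. Interneurons had 26.4, 27.5 and 26.3 TPM, cerebellar granule cells 19.4, 22.6 and 20.8 TPM, and microglia 10.9, 12.1 and 10.96 TPM. No neighbours overlapped. Srr in astrocytes was 1.27-fold higher than the log2 mean of the neuron types (log2 0.35, standard error 0.04, edgeR adjusted p = 1.09e-06). The plain means were closer, at 72.75 CPM in astrocytes and 68.84 CPM in neurons (CPM are counts scaled to the library total, with no length correction), and with limma on log2(TPM + 1) the difference was 0.05 and not called (adjusted p = 0.371). Against layer V neurons, the neuron type of the same tissue, the log2 difference was −0.07 (edgeR adjusted p = 0.30). Srr was lower in microglia than in neurons by 3.13-fold (log2 −1.65, standard error 0.05).

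Which Srr transcript carried the reads also differed between cell types. Srr-204, with a longer first exon (330 bp) and without the exon at chr11:74919437-74919662, made up 49.7% to 57.9% of Srr TPM in dentate gyrus granule cells and 53.0% to 55.8% in layer V neurons. Its share was 24.6% to 33.4% in microglia, 24.1% to 27.0% in astrocytes, 18.6% to 21.9% in interneurons and 5.81% to 6.72% in cerebellar granule cells. Srr-201, which starts in a 180 bp first exon, was the leading transcript in those 4 cell types, at 70.0% in cerebellar granule cells. Srr-204 and Srr-201 are annotated with the same coding sequence of 1017 bp, so the annotated difference lies outside it. On the TPM scale Srr-204 was 52.1 ± 5.11 (SD, n = 3) in dentate gyrus granule cells, 25.4 ± 1.35 in layer V neurons and 1.29 ± 0.120 in cerebellar granule cells, while Srr-201 was 34.7 ± 3.73, 16.2 ± 0.912 and 14.6 ± 0.414. The split rests on kallisto's assignment of reads to overlapping transcripts. Of the 4560 exonic bases of Srr, 1240 overlap exons of Tsr1 and 126 overlap exons of Smg6, both on the opposite strand. Tsr1, with the longer overlap, was highest in dentate gyrus granule cells, as Srr was, at 34.3 TPM, against 28.7 TPM in cerebellar granule cells, 25.3 TPM in interneurons and 15.3 to 17.7 TPM in the other cell types. Smg6 was between 10.6 and 19.9 TPM in all cell types. The part of reads from the opposite strand in these levels was not tested.

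**Figure D3:**
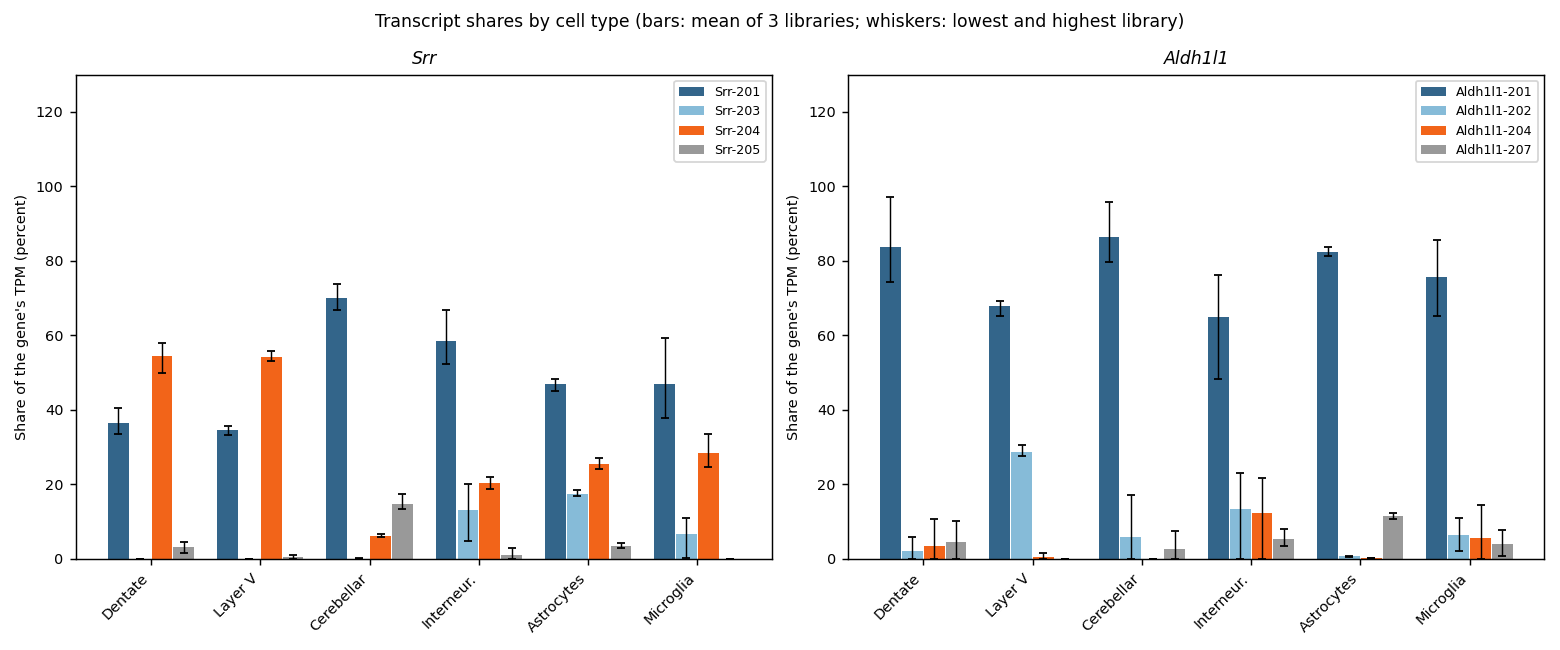
Share of each gene's TPM held by its transcripts with at least 10% in some cell type, for Srr and Aldh1l1, with bars at the mean of 3 libraries and whiskers from the lowest to the highest library. Srr-204 leads in dentate gyrus granule cells and layer V neurons, and Aldh1l1-202 reaches 28.6% in layer V neurons.

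Shmt1 (ENSMUSG00000020534.14, chr11:60788104-60811718, minus strand), the cytosolic enzyme, had the lowest levels of the group in astrocytes. It was at 8.59, 8.37 and 7.75 TPM in dentate gyrus granule cells, 4.84, 4.36 and 4.34 TPM in interneurons and 3.00, 3.45 and 3.85 TPM in microglia. Astrocytes had 1.11, 1.99 and 1.23 TPM and layer V neurons 1.04, 1.32 and 1.07 TPM, which overlapped. Cerebellar granule cells had 0.180, 0.364 and 0.452 TPM, or 6 to 12 estimated counts. The fitted distance between dentate gyrus and cerebellar granule cells was 5.72 on the log2 scale, the largest neuronal range of the 10 genes in the edgeR fit. With limma on log2(TPM + 1), which shrinks differences of low genes, it was 2.80, below the 3.96 of Phgdh. The astrocyte to neuron difference, 0.14 (standard error 0.14, 95% interval −0.12 to 0.41, edgeR adjusted p = 0.34), did not pass the test and turned to −0.52 (adjusted p = 0.000153) with limma on log2(TPM + 1). Microglia were 1.97-fold above the log2 mean of the neuron types, although their mean of 2.86 CPM was below the plain neuronal mean of 3.36 CPM, since the very low cerebellar libraries weigh more on the log2 scale.

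Shmt2 (ENSMUSG00000025403.5, chr10:127517123-127522444, minus strand), the mitochondrial enzyme, varied least between glia. It was at 35.9, 33.2 and 34.3 TPM in astrocytes and 31.2, 29.6 and 31.4 TPM in microglia. Cerebellar granule cells followed at 26.4, 25.2 and 24.001 TPM, then dentate gyrus granule cells at 16.5, 16.7 and 16.2 TPM, interneurons at 11.7, 10.8 and 12.1 TPM and layer V neurons at 10.5, 8.76 and 10.4 TPM. No neighbours overlapped. The difference between astrocytes and microglia was 1.23-fold (log2 0.30, standard error 0.07, edgeR adjusted p = 0.000895), and in the batch 2 libraries alone it was 0.14 (adjusted p = 0.168). Both glial types were above neurons, by 2.82-fold and 2.29-fold.

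The balance between the mitochondrial and the cytosolic enzyme differed widely. Shmt2 over Shmt1 on the TPM scale was 2.00 ± 0.086 (SD, n = 3) in dentate gyrus granule cells, 2.56 ± 0.196 in interneurons, 8.82 ± 1.90 in layer V neurons, 9.03 ± 1.18 in microglia, 25.6 ± 8.12 in astrocytes and 89.6 ± 49.9 in cerebellar granule cells. The log2 ratio of the 3 astrocyte libraries was 1.67 above that of the 12 neuronal libraries (exact permutation test, two-sided, p = 0.248), and that of microglia 0.21 above (exact permutation test, two-sided, p = 0.936). With 455 possible splits the smallest p this test could give was 0.0022. It treats the 12 neuronal libraries as exchangeable although their spread lay mostly between neuron types, so these p-values do not show that the balance was alike. The neuronal log2 ratios ran from 0.94 to 7.20 and enclosed those of both glial types.

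Of the 10 genes, Gldc had the largest difference between astrocytes and neurons in the edgeR fit. Phgdh passed it against layer V neurons only, at 8.69 against 8.54 on the log2 scale, and narrowly with limma on log2(TPM + 1), at 6.29 against 6.27. The other glycine cleavage genes, Gcsh and Amt, had smaller differences than Phgdh and Psat1. Gldc (ENSMUSG00000024827.10, chr19:30098447-30175429, minus strand) encodes the decarboxylase that starts glycine breakdown. It was at 137, 127.7 and 142 TPM in astrocytes, and every other library was at 3.05 TPM or less. Microglia had 2.23, 2.62 and 3.05 TPM, interneurons 1.32, 1.505 and 1.47 TPM, and dentate gyrus granule cells 1.11, 0.658 and 1.44 TPM. Cerebellar granule cells, with 0.400, 0.452 and 0.391 TPM, overlapped layer V neurons, with 0.337, 0.412 and 0.465 TPM. Gldc was 235-fold higher in astrocytes than in neurons (log2 7.88, standard error 0.10, edgeR adjusted p = 5.06e-21) and 55.2-fold higher than in microglia (log2 5.79, standard error 0.15). Outside astrocytes its level was 0.299% to 1.94% of the astrocyte mean, within the range of the astrocyte markers in each of the 5 cell types. The part of astrocyte RNA in these low levels was not tested.

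Gcsh (ENSMUSG00000034424.5, chr8:116981810-116993537, minus strand), the lipoyl carrier protein of the complex, was at 222.7, 199 and 204 TPM in astrocytes. Interneurons had 81.9, 89.4 and 81.4 TPM, layer V neurons 51.5, 49.3 and 49.4 TPM, and dentate gyrus granule cells 41.9, 46.2 and 45.7 TPM. Cerebellar granule cells, at 29.7, 30.9 and 25.0 TPM, overlapped microglia, at 27.7, 30.2 and 26.9 TPM. Astrocytes were 5.20-fold above neurons (log2 2.38, standard error 0.05), and microglia were 1.54-fold below them (log2 −0.62, standard error 0.06, edgeR adjusted p = 9.53e-09).

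Amt (ENSMUSG00000032607.12, chr9:108296853-108302302, plus strand), the aminomethyltransferase that loads the carbon onto folate, was at 90.1, 87.2 and 88.1 TPM in astrocytes. Cerebellar granule cells had 20.8, 18.3 and 18.2 TPM, microglia 13.8, 16.1 and 19.6 TPM, interneurons 12.7, 12.3 and 15.4 TPM, layer V neurons 4.96, 6.26 and 7.02 TPM and dentate gyrus granule cells 4.84, 3.54 and 6.44 TPM. On this scale cerebellar granule cells overlapped microglia, microglia overlapped interneurons, and layer V neurons overlapped dentate gyrus granule cells. In CPM cerebellar granule cells (14.4 to 15.97) lay above microglia (9.84 to 13.5). The coding transcript Amt-201 was also higher in cerebellar granule cells, at 13.2 to 14.5 TPM against 6.18 to 9.14 TPM in microglia. Amt was 12.3-fold higher in astrocytes than in neurons (log2 3.62, standard error 0.08, edgeR adjusted p = 3.23e-17) and 1.57-fold higher in microglia (log2 0.66, standard error 0.10).

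The 3 subunits came closest to equal levels in astrocytes. Gcsh over Gldc on the TPM scale was 1.54 ± 0.094 (SD, n = 3) in astrocytes and 10.9 ± 1.87 in microglia. In the neuron types it was 46.6 ± 20.7 in dentate gyrus granule cells, 58.9 ± 3.42 in interneurons, 68.9 ± 5.15 in cerebellar granule cells and 126.2 ± 23.9 in layer V neurons. Amt over Gldc was 0.654 ± 0.031 in astrocytes and between 4.74 and 46.4 on average elsewhere. Neurons and microglia thus held Gcsh and Amt mRNA with little Gldc mRNA. Phgdh was likewise low beside Psat1 and Psph in layer V and cerebellar granule cells, though Psat1 itself lay within the range of the astrocyte markers there.

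**Figure D4:**
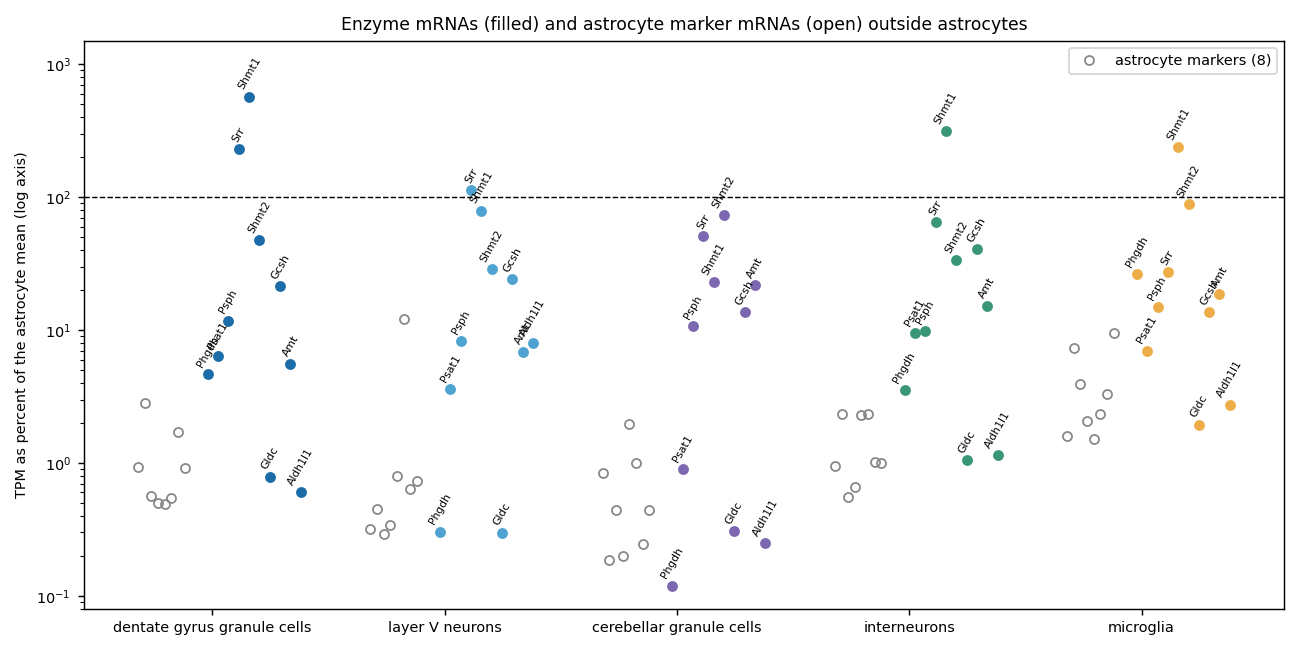
Mean TPM of each enzyme gene (filled) and of the 8 astrocyte markers (open) in the 5 other cell types, as a percent of the astrocyte mean on a log axis. Gldc lies within the range of the markers in all 5 cell types, and Srr, Shmt1, Shmt2 and Gcsh lie above every marker in all 5.

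Aldh1l1 (ENSMUSG00000030088.15, chr6:90486427-90600203, plus strand), the formyl-tetrahydrofolate dehydrogenase whose regulatory sequence marks the astrocytes here, was at 352, 333 and 361 TPM in astrocytes. Its next highest level was in layer V neurons, at 27.7, 27.3 and 27.9 TPM. Microglia had 9.19, 9.30 and 10.3 TPM, interneurons 3.30, 3.93 and 4.72 TPM, dentate gyrus granule cells 1.98, 1.44 and 2.89 TPM, and cerebellar granule cells 0.753, 0.859 and 0.995 TPM. No neighbours overlapped. Microglia were 3.09-fold above the 4 neuron types together (log2 1.63, standard error 0.10), and this direction turned against layer V neurons alone, where the log2 difference was −1.16. Layer V neurons stood at 7.92% of the astrocyte mean, above 7 of the 8 astrocyte markers. The eighth, S100b, stood at 12.1% there. Gfap, Gja1, Slc1a3 and Aqp4 were at 0.448%, 0.342%, 0.291% and 0.317% in the same libraries.

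Part of the layer V signal was assigned to a transcript with its own start. Aldh1l1-202, a short transcript annotated as not coding, begins at chr6:90486427-90486531, 64378 bp upstream of the start of the main transcript Aldh1l1-201, and shares exons with it. It was at 7.91 ± 0.533 TPM (SD, n = 3) in layer V neurons, from 61 to 75 estimated counts per library, against 2.45 ± 0.530 TPM in astrocytes and means of 0.613 TPM or less in the other cell types. It held 27.5% to 30.5% of Aldh1l1 TPM in layer V neurons and 0.583% to 0.845% in astrocytes. Its part of the estimated counts was far smaller, since Aldh1l1 had 1838 to 2377 per layer V library and TPM corrects for its length of 400 bp. This split too rests on kallisto's assignment of reads to overlapping transcripts. The coding transcript Aldh1l1-201 was itself at 18.7 ± 0.494 TPM in layer V neurons, with 1705 to 2240 estimated counts, against 286.9 ± 12.5 TPM in astrocytes and 7.26 ± 1.04 TPM in microglia. The first exon of Aldh1l1-202 lies within the long non-coding RNA Gm45901 on the same strand, which was at 0.55 to 1.52 TPM in layer V neurons and at most 0.69 TPM elsewhere. The 250 bases before this start hold a CCAAT and a GGGCGG on either strand, as printed above.

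For the other members the leading transcript was stable, though short non-coding transcripts held part of the TPM of some genes. A single transcript led in all 6 cell types for 8 of the 10 genes. The exceptions were Srr and Shmt1, whose retained-intron transcript Shmt1-205 led in layer V neurons and cerebellar granule cells on at most 6 estimated counts per library. Psph, Shmt1 and Shmt2 share 452, 184 and 32 exonic bases with Cct6a, Smcr8 and Ndufa4l2 on the opposite strand. Cct6a was at 198 TPM in astrocytes and 229 to 463 TPM elsewhere. The retained-intron transcript Psph-206, of 398 bp, held 25.8% of Psph TPM in astrocytes on 144 to 259 estimated counts. In microglia the coding transcript Amt-201 held 44.3% of Amt TPM, and the retained-intron transcripts Amt-204 and Amt-203 held 24.1% and 15.2%.

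Over the 18 libraries, the genes whose log2(CPM + 1) followed each member most closely are named here as a description, since the libraries of a cell type rise and fall together. Phgdh was followed by H1f2 (Pearson r = 0.99), Pdlim5 and Kctd12b, Psat1 by the GABA transporter gene Slc6a11 (r = 0.99), St3gal4 and Sash1, and Psph by Nat8f7, Entpd2 and Cdh26. Gldc was followed by Adhfe1, Gli3 and Lcat, all with r = 0.997, Gcsh by Slc1a4 (r = 0.99), Chst2 and Tspan12, and Amt by Vegfa (r = 0.99), S100a16 and Chmp5. Slc1a4 encodes a transporter of neutral amino acids that include serine. Srr was followed by Dusp19 (r = 0.98), Ift122 and Ift57, Shmt1 by Fbn1 (r = 0.97), Fndc1 and Gm10605, Shmt2 by Fbrsl1 (r = 0.99), Papss1 and Hsd3b7, and Aldh1l1 by S100a6 (r = 0.99), Fam20a and 9430041J12Rik.

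The wider pathway was followed through 71 other genes in 7 lists, of which 65 passed the filter (Ftcd, Mat1a, Bhmt, Tdh, Agxt and Sptlc3 did not). In astrocytes 42 of the 65 were higher than in neurons and 21 lower, against 43.0% and 34.1% of all genes, and in microglia 27 were higher and 29 lower, against 45.1% and 37.2%. Counts of calls in the single lists below have these same backgrounds, and their medians stand beside 0.14 over all genes in astrocytes and 0.15 in microglia. The lists were chosen with results of these data known.

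The genes of serine and glycine transport included those with the largest astrocyte to neuron folds of the 7 lists, Slc38a3 and Slc7a10. Of the 13 genes, 8 were higher and 5 lower in astrocytes, against 43.0% and 34.1% of all genes, with a median log2 fold change of 1.51 against 0.14 over all genes. Slc38a3, a glutamine transporter of the SNAT family, was at 351 TPM in astrocytes, 31.2 TPM in microglia and 0.774 to 4.17 TPM in neurons, a 219.8-fold difference from neurons (log2 7.78, standard error 0.16). Slc7a10, which carries small neutral amino acids including D-serine, was at 250.3 TPM in astrocytes, 10.6 TPM in microglia and 0.961 to 3.67 TPM in neurons, a 181-fold difference (log2 7.50, standard error 0.14). Slc38a1 was lower in astrocytes than in neurons by 3.21-fold (log2 −1.69, standard error 0.05), at 18.5 TPM against 36.3 to 154 TPM. Slc6a5, the neuronal glycine transporter, was called lower as well but was at most 0.168 TPM in any cell type on average. In microglia 5 of the 13 genes were higher and 8 lower, with Slc1a5 at 6.24 TPM against at most 0.610 TPM in neurons (log2 4.72, standard error 0.18).

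In the list of lipoylation and of serine and glycine breakdown, 8 of 11 genes were higher in astrocytes and 2 lower, against 43.0% and 34.1% of all genes, with a median log2 fold change of 2.03, the highest of the 7 lists. Sardh, which demethylates sarcosine to glycine, was at 55.0 TPM in astrocytes against 0.550 to 6.89 TPM in neurons (log2 5.69, standard error 0.08). Sds, a serine dehydratase, had a large fold but only 0.456 TPM in astrocytes. Dld, the dihydrolipoamide dehydrogenase shared with other complexes, was 1.10-fold lower in astrocytes than in neurons (log2 −0.14, standard error 0.04) and 2.86-fold lower in microglia. Lipt1 was lower in astrocytes by 1.21-fold.

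In the methionine cycle and transsulfuration, 5 of 10 genes were higher in astrocytes and 4 lower, close to the 43.0% and 34.1% of all genes, with a median log2 fold change of 0.05 against 0.14 over all genes. The 2 enzymes of the route from homocysteine to cysteine led. Cbs, which joins serine to homocysteine, was at 167 TPM in astrocytes, 9.26 TPM in microglia and 0.766 to 4.40 TPM in neurons, a 112.7-fold difference from neurons (log2 6.82, standard error 0.08). Cth, the next enzyme, was at 29.4 TPM in astrocytes and 0.653 to 3.00 TPM in neurons (log2 5.12, standard error 0.10). Mat2b was lower in astrocytes (log2 −1.03, standard error 0.04), and Gnmt was lower against a neuronal mean carried by cerebellar granule cells, at 17.3 TPM there and 0.232 to 0.461 TPM in the other neuron types. In microglia 3 genes were higher and 5 lower. Mtr, the methionine synthase that takes the methyl group of folate, was at 26.3 TPM in microglia against 2.47 to 7.96 TPM in neurons (log2 2.64, standard error 0.05), and Ahcyl2 was lower (log2 −1.39, standard error 0.05).

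Of 12 folate interconversion genes, 8 were higher and 4 lower in astrocytes, against 43.0% and 34.1% of all genes, with a median log2 fold change of 1.09, and 7 were higher and 4 lower in microglia, against 45.1% and 37.2%. Mthfs, which returns formyl-folate to the active pool, was at 34.5 TPM in microglia, 13.8 TPM in astrocytes and 3.29 to 6.01 TPM in neurons (log2 3.58 in microglia, standard error 0.09, and 2.35 in astrocytes, standard error 0.10). Aldh1l2, the mitochondrial relative of Aldh1l1, was at 2.03 TPM in astrocytes and at 3.01 TPM in cerebellar granule cells, and was higher than the log2 mean of the neuron types by 1.56 (standard error 0.12). Mthfd1l and Mthfd2 were lower in astrocytes (log2 −1.97, standard error 0.09, and −0.51, standard error 0.07). Mthfd1l was at 16.8 TPM in cerebellar granule cells and 2.04 TPM in astrocytes.

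Of 7 folate uptake and retention genes, 6 were higher and 1 lower in astrocytes, against 43.0% and 34.1% of all genes, and 5 were higher and 1 lower in microglia, against 45.1% and 37.2%. The proton-coupled folate transporter Slc46a1 was at 47.6 TPM in microglia, 25.9 TPM in astrocytes and 0.761 to 8.24 TPM in neurons (log2 3.52 for astrocytes, standard error 0.08). The folate receptor Folr1 was at 7.24 TPM in astrocytes and 0.155 to 3.06 TPM in neurons, with a wide standard error of 0.69 on its log2 difference of 3.82. Folr2 was at 1.11 TPM in microglia and at most 0.245 TPM elsewhere. The mitochondrial folate carrier Slc25a32 was lower in both, by 1.76-fold and 1.69-fold.

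Of 4 serine-using lipid enzymes, 3 were higher and 1 lower in astrocytes, against 43.0% and 34.1% of all genes. Ptdss1 was at 70.8 TPM in astrocytes and 27.9 to 55.0 TPM in neurons, and Sptlc1 was 2.07-fold higher. Sptlc2 was lower in astrocytes by 1.51-fold and higher in microglia by 3.02-fold, at 92.0 TPM there against 14.2 to 32.9 TPM in neurons, while Ptdss2 was 1.25-fold lower in microglia. Of 8 receptors for glycine and D-serine, 4 were higher and 4 lower in astrocytes, near the 43.0% and 34.1% of all genes, and none was higher and 5 were lower in microglia, against 45.1% and 37.2%. Grin1, the NMDA receptor subunit that binds glycine or D-serine, was at 248.4 to 279 TPM in the neuron types, 50.1 TPM in astrocytes and 48.2 TPM in microglia. Glra2 was lower in astrocytes (log2 −1.66, standard error 0.12), Grin3a was at 15.5 TPM in astrocytes and 0.210 to 35.6 TPM in neurons, and Glra4 was at or below 0.405 TPM in all cell types. Glrb was at 10.2 TPM in microglia against 118.7 to 290.5 TPM in neurons, 16.6-fold lower (log2 −4.05, standard error 0.07).

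**Figure D5:**
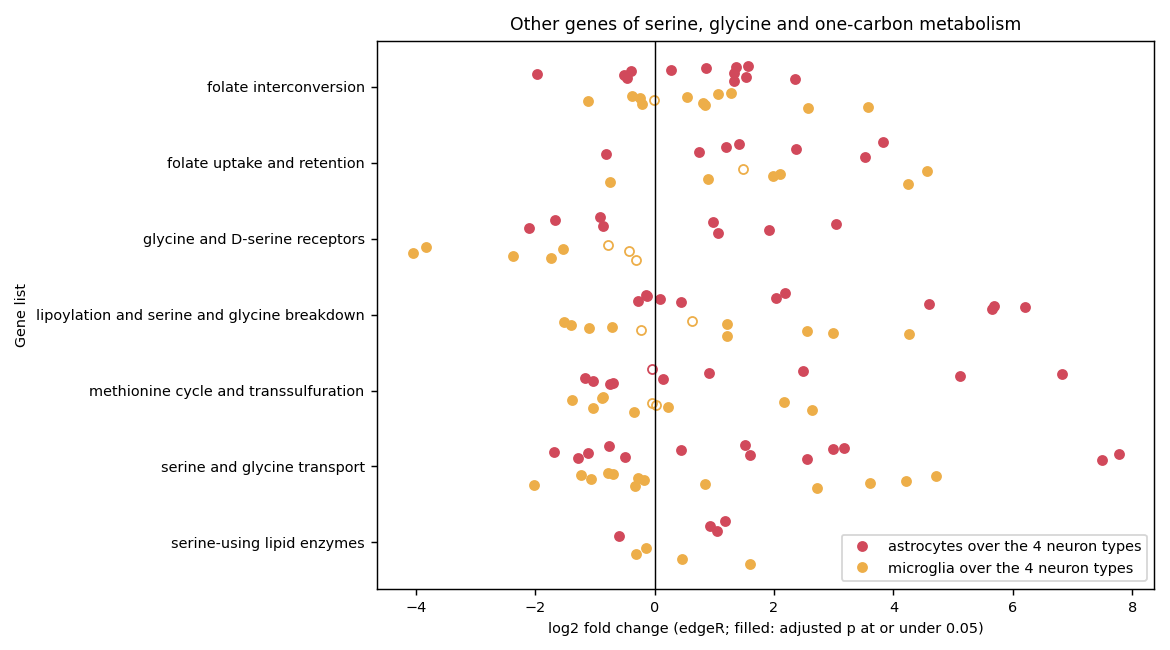
Log2 fold change of each of the 65 tested pathway genes in astrocytes (red) and microglia (yellow) over the 4 neuron types, by list, with filled points for an adjusted p at or under 0.05. The astrocyte points past 6 are Slc38a3, Slc7a10, Cbs and Sds.

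Interneurons and microglia were sequenced in batch 2 and the other cell types in batch 1, with 4 replicates sequenced in both. Within batch 1, where astrocytes meet 3 neuron types, the log2 difference was 7.91 for Phgdh, 5.51 for Psat1, 3.38 for Psph, 8.24 for Gldc, 2.66 for Gcsh, 3.82 for Amt and 7.03 for Aldh1l1. Within batch 2, with 1 astrocyte library, it was 6.92, 4.93, 3.25, 7.60, 2.21, 3.46 and 6.73 for the same genes. For microglia within batch 2 it was 4.94 for Phgdh, 0.97 for Psat1, 0.56 for Psph, 1.96 for Gldc, −0.68 for Gcsh, 0.57 for Amt and 1.45 for Aldh1l1. Between the batch 1 and batch 2 library of the same replicate, the 28 member values of at least 5 TPM differed by −0.13 to 0.29 on the log2 scale, and all 40 by −1.48 to 0.47. The widest gap was that of Shmt1 in cerebellar granule cells, at 0.452 TPM in batch 1 and 0.163 TPM in batch 2, so the neuronal range of Shmt1 and its ratio to Shmt2 in those cells rest on values of low precision.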

How the data were processed

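RNA on HA-tagged ribosomes was immunoprecipitated from brain tissue and sequenced with a stranded poly(A) kit. Adapters were removed with cutadapt 3.5 and GENCODE M24 transcripts (GRCm38) quantified with kallisto 0.46.2, as the submitters' processing notes and methods give it. The strand setting is not given in the sources used here. The deposited files hold estimated counts and TPM values for 142552 transcripts per library. Both were summed here per gene, and estimated counts were rounded. Of 22 libraries 18 were used, the batch 1 library for the 4 replicates with a library in both batches. One unused batch 2 library went against its sex label. Counts were tested with edgeR 4.0.16 (R 4.3.3): filterByExpr by cell type with a minimum count of 10, TMM factors, a quasi-likelihood fit of 1 mean per cell type, contrasts of glia against the mean of the 4 neuron types, and Benjamini-Hochberg adjustment over 20524 genes. A test on simulated data for astrocytes against neurons (19404 genes) recovered 49 of 50 genes changed 8-fold and 46 of 50 at 4-fold. It recovered 36 of 50 at 2-fold and 30 of 50 at 1.5-fold. The simulated cell types were alike apart from the changed genes in astrocytes, whereas 88.3% of real genes differed among the neuron types. These rates therefore check the code and do not give the power in the real data. The Shmt ratio used an exact permutation test over libraries. Alternatives were DESeq2 1.42.0, limma 3.58.1 on log2(TPM + 1), other normalizations and filters, coding transcripts only, batch settings, cortex only and leaving out each replicate. Exons came from GENCODE M21, which has the same versioned identifiers for the 10 genes. All 10 genes were named with values. Of each pathway list the text names up to 2 genes with the largest log2 fold change each way among those called in astrocytes and 1 each way in microglia, and for each member the 3 genes with the highest Pearson r. Genes and lists were chosen with earlier results of these data known.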

Additional observations from a re-analysis of the deposited data

How the results depend on the processing

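Of 1240 refits of the 40 single-gene results, 1230 kept their direction and their side of the threshold. Srr in astrocytes against neurons (log2 0.35) lost its call with limma on log2(TPM + 1), at 0.05, and on log2(TPM + 0.1), at 0.06, and turned to −0.066 against layer V neurons only. Shmt1 in the same comparison (log2 0.14, not called) turned to −0.52 and −0.49 with limma, and to −0.073 without astrocyte replicate 3, and passed the threshold at 0.66 in batch 1 only and at 0.95 against layer V neurons only. Leaving out each replicate gave Shmt1 values of −0.073 to 0.149. With limma 1 of the 10 genes was lower in astrocytes, against 0 in the edgeR fit. Aldh1l1 in microglia turned from 1.63 to −1.16 against layer V neurons only, and Shmt2 in astrocytes against microglia fell to 0.14 in batch 2 only, no longer called. When a difference of at least 4-fold was also required, a rule chosen after seeing the data, 2 genes were higher in microglia than in neurons in place of 8. The cause was not tested. Among calls that held, the sizes that moved most were the range of Shmt1 among the neuron types, from 5.72 to 2.80 with limma on log2(TPM + 1), Aldh1l1 in astrocytes, from 7.03 to 4.24 against layer V neurons only, Phgdh in astrocytes, from 6.29 with limma to 8.69 against layer V neurons only, and Gldc in astrocytes, from 6.27 with limma to 8.54 against layer V neurons only. The main fits did not pair samples by replicate number. Deviations of libraries with the same number correlated at −0.075 to 0.218 over 45 pairs, with a median of 0.087. With other numbers they correlated at −0.224 to 0.199 over 90 pairs, with a median of −0.039. With the number as a replicate block 9 genes were called in astrocytes against neurons and 10 in each other comparison, as without it, and 41 pathway genes were higher in astrocytes in place of 42. Counts of pathway genes stayed within 1.5 times under every alternative run. Low counts of the gene limit Phgdh, Shmt1 and Gldc in cerebellar granule cells and layer V neurons most, where single libraries held 6 to 102 estimated counts.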
